A study of Homo sapiens with 6 samples.

Results

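FOS, JUN, EGR1, ATF3, DUSP1 and MYC were examined as 6 genes that cells switch on early after a signal. They were located by the rule that a 10 kb window belongs to a gene when its start lies within a fixed hg19 interval around it. This gave 4 windows for FOS, 4 for JUN, 3 for EGR1, 8 for ATF3, 3 for DUSP1 and 4 for MYC, together 26 of 303641 windows. All 26 were among the 278395 windows with a mean of at least 10 reads over the libraries, which were compared. The rule used positions and no measured value, but the 6 genes were chosen with earlier results of these data known. For each gene the 100 windows within 500 kb on its sides, called its flanks here, served as local reference.

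The reads came from chromatin immunoprecipitation followed by sequencing (ChIP-seq) in T47D-MTVL cells, an established line derived from the hormone-responsive breast cancer line T47D. In all groups the cells had been kept first in charcoal-stripped serum without phenol red and then for 1 day without serum. PARP1 and CDK2 were each precipitated from untreated cells (0 min) and from cells given 10 nM R5020, a synthetic progestin, for 5 or 30 min. There was 1 library for each antibody and time, so the differences have no replicate check, and the tests compare single libraries and not the conditions. The question behind the series was how CDK2, a cyclin-dependent kinase, activates PARP1, an enzyme that makes ADP-ribose chains, in the progestin response.

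Immediate early genes are transcribed within minutes of a stimulus without the need for new protein. They are driven by factors that are already present and are modified by kinases, such as serum response factor with its ternary complex partners and the CREB family. In breast cancer cells progestins activate kinase cascades rapidly, and FOS, EGR1, DUSP1 and MYC are well known responders to such cascades. FOS and JUN are the subunits of the AP-1 transcription factor, EGR1 is a zinc finger factor, ATF3 is a stress-induced relative of FOS and JUN, and MYC drives growth and ribosome synthesis. DUSP1 is a phosphatase that switches mitogen-activated protein kinases off again.

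The promoters of 5 of the 6 genes, all but MYC, were matched in the RefSeq table of build GRCh38.p14. The 250 bases before the start site are printed for 4 of these genes. All 4 hold the core of the cAMP response element (TGACG). Only EGR1 also holds a CArG box, the site of serum response factor. ATF3, which is not printed, holds neither motif before either of its 2 start sites. Both motifs are among the elements that link early genes to kinases. Sequences run 5′ to 3′ toward the start site, and capitals mark these 2 motifs on either strand (TGACG reads CGTCA on the other strand).
FOS: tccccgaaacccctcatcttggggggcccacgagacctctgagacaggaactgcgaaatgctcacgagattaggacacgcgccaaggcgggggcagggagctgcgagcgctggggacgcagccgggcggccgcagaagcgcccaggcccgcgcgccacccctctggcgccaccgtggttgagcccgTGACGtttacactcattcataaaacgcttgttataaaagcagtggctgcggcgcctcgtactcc
JUN: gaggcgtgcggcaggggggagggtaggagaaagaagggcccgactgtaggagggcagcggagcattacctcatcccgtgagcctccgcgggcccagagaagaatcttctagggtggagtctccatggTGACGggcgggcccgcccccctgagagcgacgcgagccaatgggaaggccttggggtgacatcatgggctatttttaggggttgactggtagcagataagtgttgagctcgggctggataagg
EGR1: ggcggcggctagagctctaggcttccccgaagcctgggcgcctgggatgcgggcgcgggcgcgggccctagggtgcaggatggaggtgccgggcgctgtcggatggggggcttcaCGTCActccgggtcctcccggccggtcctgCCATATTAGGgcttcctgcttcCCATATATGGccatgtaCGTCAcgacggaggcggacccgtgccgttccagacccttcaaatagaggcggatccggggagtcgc
DUSP1: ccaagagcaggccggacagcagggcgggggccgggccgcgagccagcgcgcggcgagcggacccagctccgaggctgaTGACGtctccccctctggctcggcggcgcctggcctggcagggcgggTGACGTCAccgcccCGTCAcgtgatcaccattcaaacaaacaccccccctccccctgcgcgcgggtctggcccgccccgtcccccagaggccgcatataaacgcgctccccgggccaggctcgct

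EGR1 held 2 CArG boxes, which occurred in 1.16% of all 35116 promoter entries, and 2 matches to TGACG, which occurred in 21.2%. DUSP1 held 4 matches to TGACG, of which 2 are the strands of 1 full TGACGTCA, found in 1.65% of entries. FOS and JUN held 1 match to TGACG each. TATAAA was matched in FOS, DUSP1 and the second of 2 ATF3 start sites, against 10.7% of entries. Counted from the start site, these matches lay at -33 in FOS, -30 in DUSP1 and -230 in ATF3. GGGCGG was matched in FOS, JUN, DUSP1 and the first ATF3 site, against 42.6%. CACGTG, the E-box bound by MYC, was matched in DUSP1 only, against 6.34% of entries. TGTTCT, the half-site of the progesterone receptor, was in 12.4% of entries and in none of the 6 windows, and its full palindrome was in 1 entry, of another gene. TGANTCA, the AP-1 site (6.57% of entries), and GCGTGGGCG, the EGR1 site (0.72%), were not in these windows either. A match describes letters and not a bound site. The deposited windows of 10 kb are too wide to place reads at any of these elements.

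In the GRCh38.p14 gene table these genes are short, with 3.1 kb for DUSP1, 3.26 kb for JUN, 3.4 kb for FOS, 3.83 kb for EGR1 and 7.52 kb for MYC, while ATF3 spans 55.4 kb. An hg19 annotation was not used here, so which window of a gene holds its promoter was not determined, and other immediate early genes were not counted. The nearest coding neighbours are TMED10 and JDP2 for FOS, MYSM1 and FGGY for JUN, REEP2 and ETF1 for EGR1, NENF and GARIN4 for ATF3, NEURL1B and ERGIC1 for DUSP1, and POU5F1B and GSDMC for MYC. The surroundings differ in gene content, with 16 other coding genes within 500 kb of FOS and of EGR1, 13 of ATF3, 9 of DUSP1, 4 of JUN and 1 of MYC.

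Libraries held between 40097131 reads (CDK2 at 30 min) and 63448449 reads (PARP1 at 30 min). CDK2 at 5 min stood apart, with 0 reads in 1.43% of the compared windows, against 0.211% in CDK2 at 30 min and at most 0.00503% in the other 4. Neighbouring windows scattered more than independent reads would, and the scatter of a comparison is given as its dispersion, which equals 1 for independent reads. It was 6.41, 4.75 and 6.62 for PARP1 at 5 against 0, 30 against 0 and 30 against 5 min, and 24.5, 14.4 and 34.0 for CDK2. Intervals below are 95% intervals of counting error. Widened intervals come from counts divided by the dispersion and are those to read beside the scatter of neighbouring windows.

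Before hormone, PARP1 reads at these genes lay close to the level of their flanks. The local level is the mean of a gene's windows over the mean of its flanks in the same library. At 0 min it was 0.905 at FOS, 0.907 at EGR1, 0.924 at MYC, 1.02 at JUN, 1.11 at DUSP1 and 1.11 at ATF3. For FOS, JUN, EGR1 and MYC these levels lay between the 22.1 and 53.7 percentile of all runs of as many windows in the genome, and DUSP1 and ATF3 lay at 77.5 and 85.5. None of the 26 windows reached 1.5 times the median of its flanks in PARP1 at 0 min, a level passed by 1.28% of windows in the genome, and none was at or under 0.67 times, against 7.57%.

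Between genes, the number of reads differed more than the local level did. In RPM per 10 kb window (reads per 1000000 reads of the library), PARP1 at 0 min ran from 2.91 at JUN (2.69 to 3.15) over 3.42 at EGR1 (3.15 to 3.72), 3.67 at FOS (3.42 to 3.93), 3.95 at DUSP1 (3.66 to 4.26) and 5.00 at MYC (4.71 to 5.30) to 5.57 at ATF3 (5.35 to 5.79). The intervals of the neighbours EGR1 and FOS, and of FOS and DUSP1, overlapped. The flanks ran from 2.87 at JUN to 5.41 at MYC. JUN had the lowest and ATF3 the highest level in CDK2 at 0, 5 and 30 min too, and in PARP1 at 30 min. In PARP1 at 5 min both ends differed, with 3.97 at EGR1 below 3.98 at JUN and 6.18 at MYC above 6.14 at ATF3, and in each pair the intervals overlapped.

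**Figure D1:**
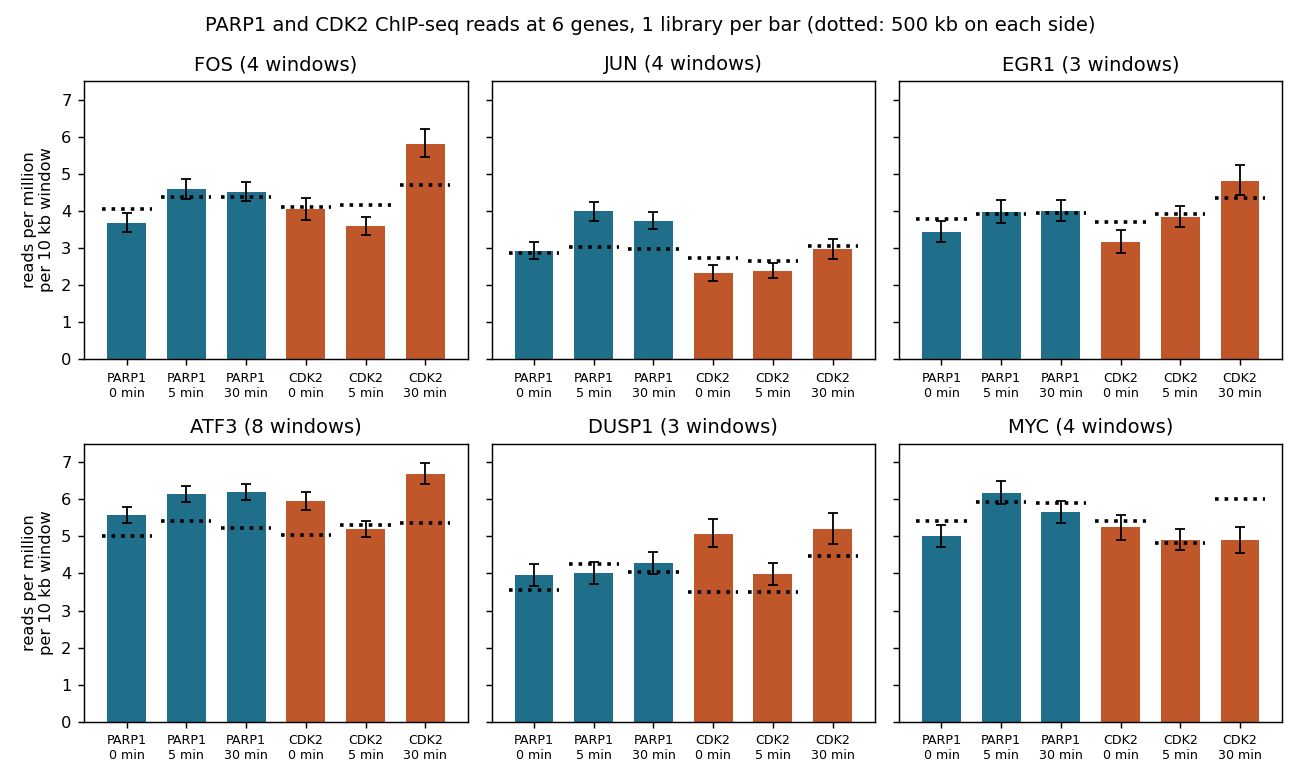
RPM per 10 kb window at each gene in the 6 libraries (bars, with 95% intervals of counting error) and in the 500 kb on each side (dotted lines). JUN has the lowest bar in 5 of the 6 libraries, and in PARP1 at 5 min EGR1 (3.97) and JUN (3.98) are level within their intervals. The CDK2 bar of DUSP1 at 0 min, at 5.08, stands above its flanks at 3.49.

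With scaling by library totals, PARP1 had more reads at all 6 genes at 5 and at 30 min than at 0 min. Part of this excess lay in the flanks, and after reference to the flanks JUN had the largest ratios and DUSP1 was on the other side of 1. No window was called at 5 min, at 30 min or between them. A call needed a depth-scaled ratio of at least 2 or at most 0.5 and a value under 0.05 from the exact binomial test with Benjamini-Hochberg adjustment over all compared windows. The share of all windows called was 2.62% at 5 against 0 min, 0.993% at 30 against 0 min and 2.1% at 30 against 5 min, so a count of 0 among 26 windows is near that background. After division of the counts by the dispersion these shares were 0.000359%, 0.00251% and 0.000359%, and 0 members were called again. Without the fold limit, 13 of the 26 passed at 5 min and 10 at 30 min, against 37.8% and 27.1% of all windows.

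JUN, the AP-1 subunit that can pair with itself or with FOS, had 650 PARP1 reads in its 4 windows without hormone, then 932 and 947. All 4 windows were above 1 at both times, with 159, 168, 158 and 165 reads untreated, then 192, 226, 287 and 227, and last 209, 289, 228 and 221. By raw counts, every JUN window at 5 or 30 min had more reads than any of them at 0 min. The windows at 5 and 30 min overlapped. These windows adjoin within single libraries and are not replicates. How many other runs of 4 windows show such a separation was not counted. Relative to the flanks the ratio was 1.29 at 5 min (1.17 to 1.43, widened 0.996 to 1.68) and 1.24 at 30 min (1.12 to 1.37, widened 0.993 to 1.55). Both comparisons share the 0 min library. These values lay at the 96.5 and 96.4 percentile of all runs of 4 windows. The widened interval held 1 at both times. It lay beside 1 at both times with library totals, TMM factors or flanks of 1 Mb, and at 5 min also with flanks of 200 kb or with their median. The local level of JUN went from 1.02 at 0 min to 1.31 and 1.26. At 5 min the highest JUN window was 59250001 to 59260000 on chromosome 1, above 97 of the 100 flank windows. At 30 min it was 59240001 to 59250000, above 99 of them.

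FOS, the partner of JUN in AP-1, had 818, 1072 and 1144 PARP1 reads in the order of time. Its windows differed. The window 75730001 to 75740000 on chromosome 14 held 175, 291 and 329 reads, whereas 75750001 to 75760000 held 213, 223 and 245. In the first of these the depth-scaled ratio was 1.59 at 5 min and 1.65 at 30 min, and at 0 min only 10 of 100 flank windows had fewer reads. The locally referenced ratio of FOS was 1.16 at 5 min (1.06 to 1.27, widened 0.914 to 1.47) and 1.14 at 30 min (1.04 to 1.252, widened 0.936 to 1.40), and in both cases the widened interval held 1.

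EGR1 had 573, 697 and 762 PARP1 reads at 0, 5 and 30 min. Its ratio to the flanks was 1.12 at both times, with intervals of 0.998 to 1.248 at 5 min and 1.002 to 1.248 at 30 min, and 2 of its 3 windows were above 1 each time. The windows did not keep one order. The window 137790001 to 137800000 on chromosome 5 went from 211 to 302 and back to 234 reads, while 137800001 to 137810000 went from 164 to 203 and 262.

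ATF3 had 2483, 2875 and 3140 PARP1 reads in 8 windows. Its ratio to the flanks stayed near 1, with 1.02 at 5 min (0.964 to 1.07) and 1.07 at 30 min (1.01 to 1.13, widened 0.950 to 1.20). Inside the gene the windows went different ways. The window 212780001 to 212790000 on chromosome 1 held 286, 446 and 485 reads in the order of time, the last more than all 100 flank windows. The next one, 212790001 to 212800000, held 245, 374 and 386. By contrast 212760001 to 212770000 held 407, 406 and 390, and its 407 reads at 0 min were more than in all 100 flank windows. At 5 min 4 of the 8 windows were above 1 relative to the flanks and 4 below, and at 30 min 5 and 3.

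MYC had 1115, 1446 and 1435 PARP1 reads at 0, 5 and 30 min. Its ratio to the flanks was 1.13 at 5 min (1.04 to 1.22, widened 0.920 to 1.38) and 1.04 at 30 min (0.957 to 1.12). Scaled by totals the ratios were 1.24 and 1.13, and the flanks themselves had 1.10 and 1.09. The window 128750001 to 128760000 on chromosome 8 held 299, 405 and 460 reads, and 128760001 to 128770000 held 265, 296 and 287.

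DUSP1, the phosphatase of the group, had the PARP1 ratio nearest to 1 by library totals, with 661, 702 and 813 reads at 0, 5 and 30 min. Scaled by totals its ratio was 1.01 at 5 min and 1.08 at 30 min. Its flanks had 1.19 and 1.13, the highest of the 6 and at the 95.2 and 95.9 percentile of all such flanks. Relative to them DUSP1 was at 0.850 at 5 min (0.763 to 0.947, widened 0.644 to 1.12), with 3 of 3 windows below 1, and at 0.955 at 30 min (0.861 to 1.06). Its direction turned with the scaling, above 1 by totals and below 1 against the flanks. The window 172180001 to 172190000 on chromosome 5 held 213, 204 and 208 reads, while 172190001 to 172200000 held 234, 258 and 336.

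Over the 26 windows, 19 had a total-scaled PARP1 ratio above 1 at 5 min and 21 at 30 min, with medians of 1.19 and 1.17. Over all compared windows 48.6% and 49.3% were above 1, with medians of 0.991 and 0.996. Relative to the flanks, 16 of the 26 were above 1 at each time. The share of all windows above 1 by this measure is not given, here or for the later comparisons. The flanks of all 6 genes were above 1, between 1.04 and 1.19 at 5 min and between 1.03 and 1.13 at 30 min. Of the flanks of all runs, 48.6% to 48.7% were above 1 at 5 min and 49.8% to 49.9% at 30 min. For 0 of the 6 genes did the widened interval lie beside 1 at 5 or at 30 min. Among all runs of 3, 4 and 8 windows it did so for 5.66%, 6.19% and 8.78% at 5 min and for 5.55%, 6.24% and 8.31% at 30 min.

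Between 5 and 30 min, the genes split evenly around 1. The PARP1 ratio of 30 to 5 min relative to the flanks ran from 0.920 at MYC (0.855 to 0.990, widened 0.759 to 1.12) to 1.12 at DUSP1 (1.01 to 1.24, widened 0.859 to 1.47). The other 4 genes lay between 0.960 and 1.05, and their counting intervals held 1. Relative to the flanks 13 windows were above and 13 below 1. The widened interval lay beside 1 for 0 genes, and for 4.47%, 4.71% and 5.45% of runs of 3, 4 and 8 windows.

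**Figure D2:**
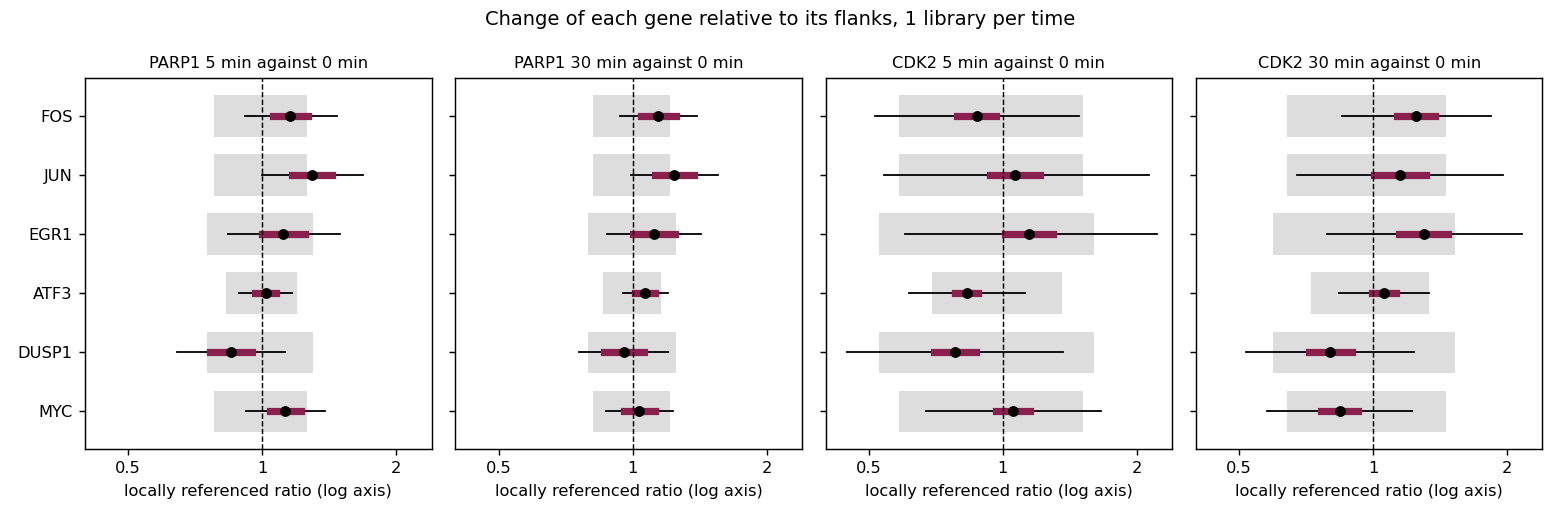
Ratio of each gene to its flanks at 5 or 30 min over the same quotient at 0 min, on a log axis (points), with counting intervals (thick lines), widened intervals (thin lines) and the range from the 5 to the 95 percentile of all runs of as many windows (grey). JUN lies just above the grey range in both PARP1 panels, at 1.29 and 1.24, and all other points lie inside it.

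Before hormone, the highest local level of CDK2 was at DUSP1. The window 172190001 to 172200000 held 300 CDK2 reads at 0 min, 1.96 times the median of the flanks and more than all 100 flank windows. It was the only one of the 26 at 1.5 times or more in that library, against 2.88% of windows in the genome. At 5 min it held 381 reads, 2.02 times the median and more than 94 of the 100 flank windows, in a library where 20% of all windows reached 1.5 times. At 30 min it held 271 reads, 1.62 times the median and more than 89, where 15.6% of all windows did. PARP1 in the same window was at 1.17, 1.04 and 1.34 times. Over its 3 windows DUSP1 had a local CDK2 level of 1.45 at 0 min, the 99.0 percentile of runs of 3 windows, then 1.14 and 1.165.

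Set against PARP1 at 0 min, CDK2 at DUSP1 was higher relative to the flanks, with a ratio of 1.31 (1.18 to 1.46, widened 1.04 to 1.66). It was the only gene of the 6 whose widened interval lay beside 1, which 4.43% of all runs of 3 windows did, 2.19% on the higher side. The shares for runs of 4 and 8 were 4.58% and 5.45%. It lay beside 1 under each of the 6 alternatives tried, with ratios from 1.28 to 1.36. The shares of runs under these alternatives are not given here. JUN was at the low end, with 417 CDK2 against 650 PARP1 reads and a ratio of 0.831 (0.733 to 0.942, widened 0.633 to 1.09). The ratio was 1.09 for FOS, 1.06 for ATF3, 1.05 for MYC and 0.944 for EGR1, and each widened interval held 1. Since 2 antibodies differ in yield, these ratios describe only where reads lay. No member window was called between the antibodies at 0 min, against 1.17% of all windows, or 0.00431% after division by the dispersion.

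After hormone, CDK2 counts at single windows jumped up and down, as they did across the genome in these libraries. At 5 against 0 min 1 of 26 windows was called, lower, against 22.4% of all windows in both directions and 16.2% lower. It was 59250001 to 59260000 at JUN, with 127, 24 and 172 reads in the order of time and a ratio of 0.148 at 5 min (0.0912 to 0.229, widened 0.00293 to 1.31). This is the same window in which PARP1 reads went from 158 to 287 at 5 min. Its neighbours at JUN went the other way or little, with 103 to 255 reads in 59230001 to 59240000 and 87 to 142 in 59260001 to 59270000. The dispersion of this comparison was 24.5, and after division by it 0 members and 0.000359% of all windows were called.

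At 30 against 0 min 3 of 26 windows were called, 2 higher and 1 lower, against 17% of all windows, 5.46% higher and 11.5% lower. The FOS window 75730001 to 75740000 had 155, 268 and 297 reads, with a ratio of 2.16 at 30 min (1.77 to 2.64, widened 0.985 to 5.00). The EGR1 window 137800001 to 137810000 had 158, 186 and 300 reads, with a ratio of 2.14 (1.76 to 2.61, widened 0.982 to 4.92). The JUN window 59260001 to 59270000 had 87, 142 and 30 reads, with a ratio of 0.388 (0.247 to 0.594, widened 0.0407 to 2.12). The adjusted values of the exact binomial test were 5.2e-14, 6.83e-14 and 1.37e-05, and all 3 calls were lost after division by the dispersion of 14.4, which left 0% of all windows called. In the FOS window PARP1 also had more reads after hormone, as given above.

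Between 5 and 30 min 7 of 26 windows were called for CDK2, 6 higher and 1 lower at 30 min, against 33.5% of all windows, 18.4% higher and 15.1% lower. The largest was the JUN window 59250001 to 59260000 again, with a ratio of 10.3 (6.72 to 16.6, widened 0.924 to 1796). At ATF3 the adjoining windows 212780001 to 212790000 and 212790001 to 212800000 had 252 and 197 reads at 5 min and 471 and 416 at 30 min, ratios of 2.69 (widened 1.03 to 7.68) and 3.04 (widened 1.05 to 10.0). At 0 min they had held 280 and 296. In both windows PARP1 had more reads at 30 than at 0 min, as given above. Its ratios of 30 to 5 min there were 1.003 and 0.952. The other calls were 75760001 to 75770000 at FOS (2.59), 137800001 to 137810000 at EGR1 (2.32), 172180001 to 172190000 at DUSP1 (2.49) and, lower, 59260001 to 59270000 at JUN (0.305). After division by the dispersion 0 of the 7 were called, and 0.000718% of all windows.

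Summed over a gene and set against the flanks, CDK2 split the group at 30 min. EGR1 had 427, 665 and 579 reads, with a ratio of 1.30 at 30 min (1.14 to 1.47, widened 0.788 to 2.16). FOS had 730, 830 and 932 reads, with a ratio of 0.873 at 5 min (0.789 to 0.965) and 1.249 at 30 min (1.13 to 1.38, widened 0.851 to 1.84). JUN, with 417, 551 and 474 reads, was at 1.15 (1.00 to 1.31), and ATF3, with 2148, 2400 and 2147, was at 1.06 (0.995 to 1.12) at 30 min. At 5 min ATF3 was at 0.829 (0.782 to 0.879, widened 0.615 to 1.12), EGR1 at 1.14 (1.01 to 1.29, widened 0.604 to 2.22) and JUN at 1.06 (0.935 to 1.21). The 2 genes below 1 at 30 min were DUSP1 and MYC. DUSP1 had 687, 691 and 626 reads, with 0.781 at 5 min (0.702 to 0.869, widened 0.446 to 1.37). At 30 min it was at 0.801 (0.718 to 0.894, widened 0.519 to 1.23). Both ratios share the CDK2 library at 0 min, where the local level of DUSP1 was 1.45. That level also enters its ratio to PARP1 at 0 min given above. MYC had 946, 1136 and 786 reads, with 1.05 at 5 min and 0.841 at 30 min (0.764 to 0.926, widened 0.576 to 1.22). For DUSP1 the direction at 30 min turned with the scaling, since by totals it was 1.03 while its flanks were at 1.28. For MYC the total-scaled value was 0.935. Against the flanks DUSP1 and EGR1 lay at the 22.8 and 84.9 percentile of runs of 3 windows. FOS and MYC lay at the 83.9 and 25.3 percentile of runs of 4, so these 4 were inside the usual range.

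The widened interval of CDK2 lay beside 1 for 0 of the 6 genes in each time comparison. Of all runs of 3, 4 and 8 windows, 3.38%, 3.6% and 4.44% did so at 5 against 0 min. At 30 against 0 min the shares were 4.38%, 4.98% and 6.96%, and at 30 against 5 min 3.35%, 3.93% and 5.38%. The 26 windows were divided, with 11 above 1 and 15 below relative to the flanks at 5 min, and 13 and 13 at 30 min. The flanks of all 6 genes were above 1 at 30 min, between 1.06 at ATF3 and 1.28 at DUSP1, against 45.7% to 45.8% of the flanks of all runs. At 5 min they lay between 0.891 at MYC and 1.06 at EGR1.

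**Figure D3:**
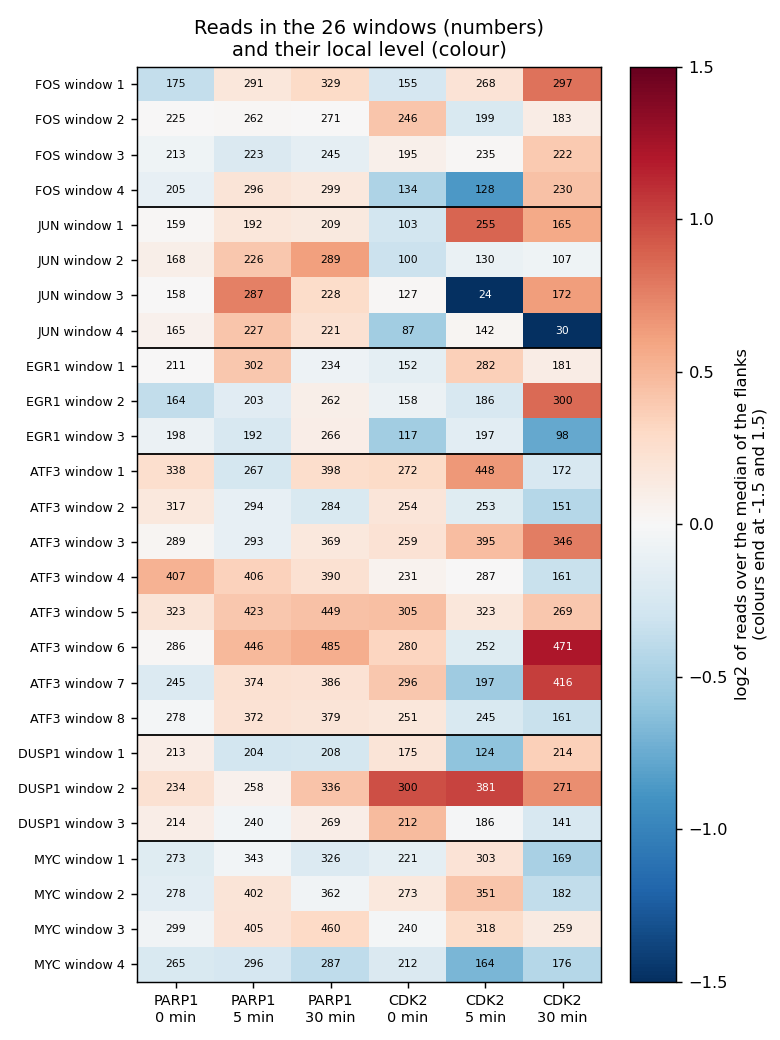
Reads in each of the 26 windows (numbers, windows in order along the chromosome) in the 6 libraries, with colour for the log2 ratio to the median of the flanks. The 3 PARP1 columns are paler, while CDK2 at 5 and 30 min holds both dark red and dark blue cells, such as 24 and 30 reads at JUN and 471 at ATF3.

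The antibodies differed in how widely the windows of these genes spread. Across the 26 windows the standard deviation of the log2 local level was 0.19, 0.28 and 0.25 for PARP1 at 0, 5 and 30 min, and 0.35, 0.67 and 0.67 for CDK2. Over windows of the genome, those with 0 reads in the library left out, it was 0.46, 0.54 and 0.49 for PARP1 and 0.50, 1.02 and 0.83 for CDK2. In CDK2 at 30 min 7 windows were at 1.5 times the local median or more and 2 at 0.67 times or less, against 15.6% and 21.5% of windows in the genome. In CDK2 at 5 min these were 3 and 4, against 20% and 25.8%. In PARP1 1 window was high at 5 min, at JUN, and 1 at 30 min, also at JUN, against 4.05% and 2.02%.

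Set against PARP1 after hormone, the lower side for CDK2 held 2 called windows at 5 min and 1 called window at 30 min, against 25% and 14.2% of all windows in both directions, of which 17% and 10.3% were lower. The 2 were 75760001 to 75770000 at FOS, with 128 CDK2 and 296 PARP1 reads, and 59250001 to 59260000 at JUN, with 24 and 287. At 30 min it was 59260001 to 59270000 at JUN, with 30 and 221. After division by the dispersion 0 members were called, against 0.00287% and 0.00323% of all windows. The gene ratio of CDK2 to PARP1 relative to the flanks ran from 0.684 at JUN to 1.20 at DUSP1 at 5 min, and from 0.769 at JUN to 1.19 at FOS at 30 min. The widened interval lay beside 1 for 0 of the 6 at either time, against 3.6%, 4.08% and 5.61% of runs of 3, 4 and 8 windows at 5 min and 3.94%, 4.41% and 5.61% at 30 min. Whether a member's change over time differed between PARP1 and CDK2 was tested per window with a Wald statistic that used the dispersions, and Benjamini-Hochberg adjustment over all compared windows. The test was passed by 0 of 26 windows at 5 against 0 min, 0 at 30 against 0 min and 0 at 30 against 5 min. Of all windows 0.000359%, 0% and 0.00108% passed, so these counts cannot tell whether the antibodies changed alike. Without adjustment 2, 0 and 3 of the 26 windows had p under 0.05, against 3.36%, 3.14% and 2.99% of all windows.

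The genes were also compared by the course of their local level over the 6 libraries, with the root mean square difference of log2 local levels as the measure of likeness. FOS and EGR1 were nearest to each other, at 0.13. The nearest of ATF3 was FOS and the nearest of DUSP1 was ATF3, both at 0.20, and the nearest of MYC and of JUN was EGR1, at 0.20 and 0.23. The least alike pair was JUN and DUSP1, at 0.43, the gene with the highest local PARP1 level after hormone and the one with the highest local CDK2 level before it. These distances are descriptions over 6 libraries.

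**Figure D4:**
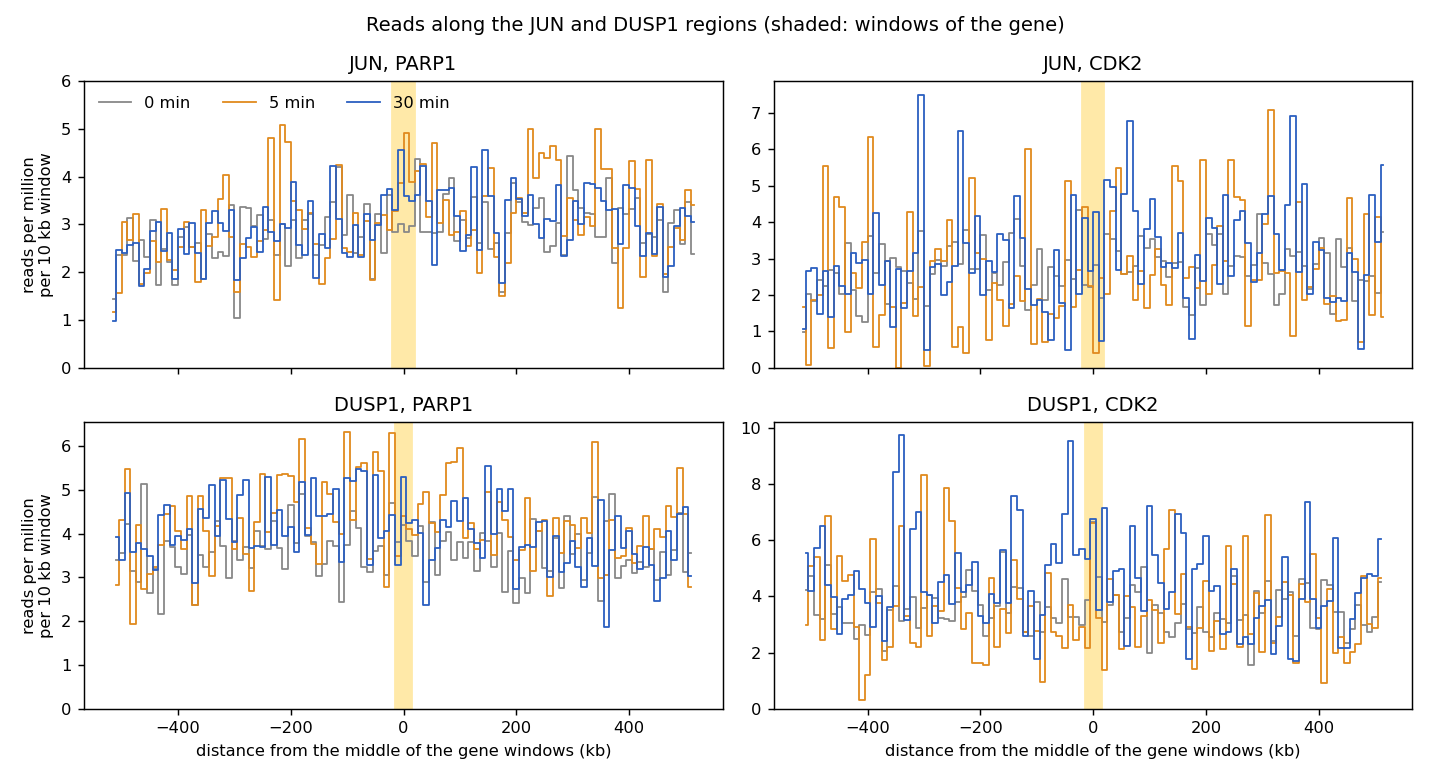
RPM per 10 kb window along the JUN and DUSP1 regions by distance from the middle of the gene's windows, for PARP1 (left) and CDK2 (right) at 0, 5 and 30 min. At JUN the 5 and 30 min lines of PARP1 run above the 0 min line in all 4 shaded windows, but the flanks hold windows as high.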

How the data were processed

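The values are read counts per 10 kb window of hg19, deposited by the authors as whole numbers without normalization, with 1 column per library. The submitters' processing notes name Bowtie 1.0.0 and the builds hg19 and GRCh37. How duplicate reads and reads with several matches were handled is not given in these sources. An input library was not analysed here.

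Members and lists were chosen with earlier results of these data known. All 6 genes are named with their counts in every library. Single windows are named where called, where highest or lowest in a gene, or, chosen after their values were seen, to show how windows of a gene differ.

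Libraries were scaled by their totals. For 9 comparisons a two-sided exact binomial test of the 2 counts, given their sum, was run on all 278395 windows with a mean of at least 10 counts and adjusted by Benjamini-Hochberg. Ratios of genes to flanks carry Clopper-Pearson 95% intervals, in which the flank reads are taken as free of error. The dispersion is the robust variance of a window's share of the 2 counts around its local value, over 20 windows on each side, divided by the binomial expectation. It also holds real differences between neighbouring windows. Genes were set beside all runs of 3, 4 or 8 compared windows, tiled along each chromosome with 50 windows on each side as flanks. Intervals cover counting error only.

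Alternatives were TMM factors (edgeR 4.0.16), median-of-ratios factors (DESeq2 1.42.0), other count minimums, fold limits and references, and division by the dispersion. These 2 packages gave scaling factors only. Computation used Python 3.11.15, numpy 2.4.6, scipy 1.17.1, pandas 2.3.3, matplotlib 3.10.9 and R 4.3.3.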

Additional observations from a re-analysis of the deposited data

How the results depend on the processing

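No paired analysis was possible because each antibody and time had 1 library, and for the same reason no library could be left out. With the fold limit at 1.5 the number of member windows called became 2 for PARP1 at 5 against 0 min and 2 at 30 against 0 min, 6 for CDK2 at 5 against 0 min and 9 at 30 against 0 min, and 2, 10 and 8 for CDK2 against PARP1 at 0, 5 and 30 min. The shares of all windows called at that limit were 15.8%, 9.06%, 45.2%, 39.7%, 9.15%, 48.2% and 35.8% in the same order. After division by the dispersion it was 0 in each of the 9 comparisons. TMM and median-of-ratios factors gave 2 called windows in place of 1 for CDK2 at 5 against 0 min. The other count minimums, 50 or none beyond 1 read, left these counts within 1.5 times. Of 36 gene ratios over time, 0 had a widened interval beside 1 against the flanks of 500 kb. The number was 1 with flanks of 200 kb, 2 with 1 Mb, 1 with the median of the flanks, 0 without the last window of each gene, 4 with library totals and 5 with TMM factors. Among runs of the sizes of the genes the mean share beside 1 was 5.05% with 500 kb. In the order of these alternatives it was 5.35%, 5.1%, 5.73%, 4.53%, 8.07% and 8.17%. These means pool the time comparisons of both antibodies. With 500 kb the shares for PARP1 against 0 min were higher than the mean, at 5.55% to 8.78%. The 4 ratios with library totals were all for PARP1. They were JUN (1.37) and MYC (1.24) at 5 min and JUN (1.28) and FOS (1.23) at 30 min. TMM added FOS for CDK2 at 30 against 0 min (1.49). The side of 1 turned for 4 of the 36 under totals, 4 under TMM, 4 without the last window, 3 with 200 kb, 2 with 1 Mb and 1 with the median. Of 18 ratios between the antibodies 1 lay beside 1 in each setting. With flanks of 500 kb, 3.6% to 5.61% of runs did so, so 1 of 18 is near that background. The shares of runs between the antibodies under the other settings are not given here. With limits for the local level at 0.8 and its inverse, 36 of 156 window levels were high and 20 low, against 19.5% and 24% of all windows over the libraries. At 1.5 and 0.67 they were 13 and 6, against 7.63% and 14%.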
